A study of Mus musculus with 8 samples.

Results

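The enzymes that hydroxylate and crosslink collagen were followed in 8 bulk RNA sequencing libraries of the mouse mammary carcinoma lines TS/A and 4T1. The set held 10 genes, taken by symbol from the 22026 genes in the files, and all 10 were found: the lysyl oxidases Lox, Loxl1, Loxl2 and Loxl3, the lysyl hydroxylases Plod1, Plod2 and Plod3, the prolyl 4-hydroxylase subunits P4ha1 and P4ha2, and the collagen chaperone gene Serpinh1. Both lines come from BALB/c mice and had been transduced with a virus vector. The groups were TS/A libraries labelled Gpr56, TS/A with the empty vector, 4T1 with a vector expressing Gpr56, and 4T1 with the empty vector, with 2 libraries each. Gpr56, also called Adgrg1, is an adhesion receptor that binds type III collagen. Cells of all groups were kept in RPMI with 10% FCS and, per the series' design text, were cultured for 72 h with type III collagen. The sample titles give another contrast, an Emp_Control and an Emp_ColIII label in each line, so that vector and collagen could not be told apart from the labels alone, and groups follow the vector given in the characteristics. Whether the paired libraries of a group were grown separately is not stated in the labels; every p-value therefore reflects the variation among these libraries alone, which may be technical.

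Collagen chains are modified inside the endoplasmic reticulum. Prolyl 4-hydroxylases add the hydroxyproline that keeps the collagen helix stable at body temperature, lysyl hydroxylases make the hydroxylysine from which firm crosslinks form, and HSP47, the product of Serpinh1, binds the folded helix on its way out of the cell. Outside the cell, lysyl oxidases turn lysine and hydroxylysine side chains into aldehydes, which then join neighbouring molecules. In breast tumours these steps are known for stiffening the matrix, and the usual main source of the enzymes is the fibroblast, though carcinoma cells make some of them as well.

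3 of the genes have alternative exons that the deposited files count as separate transcripts, and these exons are shown because their use is reported with the levels. Plod2, on chromosome 9 from 92542223 to 92608428 of GRCm38 on the plus strand, holds a coding exon of 63 bases at chr9:92601985-92602047. Transcripts with it encode the long form of lysyl hydroxylase 2, the form known to act on the telopeptides, the chain ends where crosslinks begin. P4ha1, on chromosome 10 from 59323296 to 59373304 on the plus strand, holds a pair of exons of 71 bases each, exon A at chr10:59354340-59354410 and exon B at chr10:59355350-59355420, and each of its 3 listed transcripts has one or the other. P4ha2, on chromosome 11 from 54100095 to 54131665 on the plus strand, holds a similar pair, exon A of 60 bases at chr11:54126238-54126297 and exon B of 66 bases at chr11:54126346-54126411. The sequences are those of GENCODE M21 on GRCm38, written 5′ to 3′ on the plus strand. For Plod2 the capitals are the exon, between 15 bases on each side from the neighbouring exons; for P4ha1 and P4ha2 they are the bases at which exons A and B differ, with the P4ha2 pair aligned at the 3′ end.
Plod2 exon: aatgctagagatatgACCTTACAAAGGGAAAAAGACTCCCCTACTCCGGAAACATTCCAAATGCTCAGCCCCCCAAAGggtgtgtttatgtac
P4ha1 exon A: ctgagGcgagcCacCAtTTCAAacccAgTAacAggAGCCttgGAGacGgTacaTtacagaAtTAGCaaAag
P4ha1 exon B: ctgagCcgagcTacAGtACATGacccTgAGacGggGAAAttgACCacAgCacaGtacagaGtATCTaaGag
P4ha2 exon A: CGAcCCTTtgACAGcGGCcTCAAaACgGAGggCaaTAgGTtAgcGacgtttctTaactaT
P4ha2 exon B: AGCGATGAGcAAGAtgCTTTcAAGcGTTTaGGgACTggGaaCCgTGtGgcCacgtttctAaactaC
The P4ha1 exons were identical at 42 of 71 positions (59.2%), and those of P4ha2 at 28 of 60 compared positions (46.7%).

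Promoters of 5 of the 10 genes were in the RefSeq table (GRCm38.p6): those of Plod1, Plod3, P4ha1, P4ha2 and Serpinh1. The 250 bases before the start of P4ha1, P4ha2 and Serpinh1 are shown because P4ha1 and P4ha2 encode alternative catalytic subunits of the same enzyme, of which P4ha1 was called between the lines and P4ha2 was not, and because Serpinh1 was the most abundant of the 10 genes. P4HA1 and PLOD2 are known targets of hypoxia-inducible factor, whose core motif is ACGTG or GCGTG, and HSP47 is known as a heat shock protein. The P4ha1 promoter lies at chr10:59323046-59323295 and that of P4ha2 at chr11:54100674-54100923, both on the plus strand, and that of Serpinh1 at chr7:99353240-99353489 on the minus strand. The P4ha2 window lies inside the GENCODE span of the gene, which starts at 54100095. Those of P4ha1 and Serpinh1 end next to their GENCODE starts, so the windows are not placed alike. Capitals mark ACGTG or GCGTG on either strand.
P4ha1: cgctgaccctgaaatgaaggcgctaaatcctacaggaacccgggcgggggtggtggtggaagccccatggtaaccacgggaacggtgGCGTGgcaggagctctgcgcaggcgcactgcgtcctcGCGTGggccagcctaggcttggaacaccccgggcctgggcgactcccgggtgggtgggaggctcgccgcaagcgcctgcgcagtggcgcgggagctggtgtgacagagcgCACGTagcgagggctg
P4ha2: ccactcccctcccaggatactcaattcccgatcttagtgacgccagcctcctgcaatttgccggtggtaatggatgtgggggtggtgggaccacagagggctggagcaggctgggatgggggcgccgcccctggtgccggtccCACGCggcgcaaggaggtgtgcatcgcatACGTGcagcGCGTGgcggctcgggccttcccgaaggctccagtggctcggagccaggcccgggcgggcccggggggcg
Serpinh1: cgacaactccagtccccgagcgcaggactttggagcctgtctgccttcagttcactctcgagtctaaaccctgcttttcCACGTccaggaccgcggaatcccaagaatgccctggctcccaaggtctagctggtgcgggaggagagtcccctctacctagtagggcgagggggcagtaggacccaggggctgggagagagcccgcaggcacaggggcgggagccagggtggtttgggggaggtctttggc
The windows of P4ha1 and P4ha2 each held 1 ACGTG and 2 GCGTG, and that of Serpinh1 held 1 ACGTG and 0 GCGTG. Of the promoters not shown, that of Plod3 held 1 ACGTG and 3 GCGTG, and that of Plod1 held 0 and 1. GC content was 69.6% for P4ha1, 70% for P4ha2 and 63.6% for Serpinh1, and the windows compared next were not matched for it. Of 32851 promoter windows of this length, 16.6% held ACGTG, 28.2% held GCGTG and 38.6% held at least 1 of the pair. The heat shock element core GAANNTTC, searched on both strands, was present in 6.69% of those windows and in 0 of the 3 shown. A match only describes the letters of the window.

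Depth ran between 10510569 reads in the library 4T1 Gpr56 2 and 25959142 reads in TS/A Gpr56 1, and 3 reads corresponded to between 0.116 and 0.285 CPM, the reads of a gene scaled to a common library size. Adgrg1 had 90.5 and 100.1 CPM in the 4T1 Gpr56 libraries, against 2.53 and 2.77 CPM in 4T1 empty. In TS/A it had 22.6 and 13.3 CPM in the libraries labelled Gpr56, against 34.8 and 16.3 CPM in the empty ones, so the targeted gene was not higher there and the TS/A label is given throughout as a label. The TS/A empty libraries lay far apart, with a median absolute log2 difference per gene of 0.38, against between 0.08 and 0.15 in the other groups. Epithelial markers summed to between 205.1 and 269.9 CPM in TS/A and between 2228.1 and 3310.8 CPM in 4T1. Of these 8 markers Krt18 (156.6 to 201.9 CPM), Krt19 (32.3 to 55.0 CPM) and Elf3 (9.95 to 14.9 CPM) were present in TS/A. The others were near 0 there, with at most 0.606 CPM for Krt8, 0.462 for Krt7, 0.193 for Cdh1, 0.182 for Cldn4 and 0.0865 for Epcam. All 8 were called lower in TS/A empty than in 4T1 empty, where 23.5% of all genes tested were called lower. Of the defining fibroblast markers, Lum and Dpt had 0 reads in all 8 libraries, Dcn had 0 to 2 reads, and Pdgfra lay between 7.96 and 15.8 CPM in both lines. Among the other fibroblast markers, Col1a1, Pdgfrb and Fbln1 were called higher in TS/A empty than in 4T1 empty and 0 lower, as given with the line differences below. The rest were at or near the floor in both lines. Thy1 and Fap had 0 reads in all 8 libraries, Col3a1 had 0 or 1, and Col1a2 had 1 to 7. Acta2 was at most 1.16 CPM and Tagln at most 1.71 CPM. Ptprc, the leukocyte marker, had 0 to 3 reads per library. The immune marker sum was 8.13 to 28.3 CPM, most of it Cd68 (2.325 to 17.6 CPM) and Cd14 (5.67 to 11.3 CPM). The endothelial marker sum was at most 1.70 CPM. In bulk RNA, fewer cells of a kind and less RNA per cell cannot be told apart.

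Read per transcript length (deposited RPKM summed over the transcripts of a gene), the set spanned a wide range. Serpinh1 stood at the top in every group, with 271 ± 17.5 RPKM in TS/A labelled Gpr56, 245 ± 47.0 RPKM in TS/A empty, 185 ± 10.7 RPKM in 4T1 Gpr56 and 195 ± 6.53 RPKM in 4T1 empty (SD, n = 2 each). In TS/A empty it was followed by P4ha1 at 53.7 ± 3.74 RPKM, Plod3 at 29.2 ± 5.66 RPKM and Plod2 at 23.2 ± 1.16 RPKM. Plod3 and Plod2 lay within about their spread of each other there. Loxl3 (7.50 ± 4.41 RPKM), P4ha2 (7.28 ± 0.309 RPKM) and Loxl2 (6.38 ± 0.538 RPKM) came next and could not be ordered beyond their spread, and Plod1 stood at 4.21 ± 0.918 RPKM. In 4T1 empty the order after Serpinh1 was Plod3 at 31.7 ± 2.71 RPKM, P4ha1 at 23.5 ± 0.881 RPKM, Plod2 at 21.3 ± 0.203 RPKM, P4ha2 at 7.73 ± 1.37 RPKM and Plod1 at 5.42 ± 0.17 RPKM. The lysyl oxidases of the set were at the bottom in 4T1, with 1.04 ± 0.236 RPKM for Loxl3, 0.611 ± 0.0516 RPKM for Loxl1 and 0.378 ± 0.0448 RPKM for Loxl2 in the empty libraries.

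**Figure D1:**
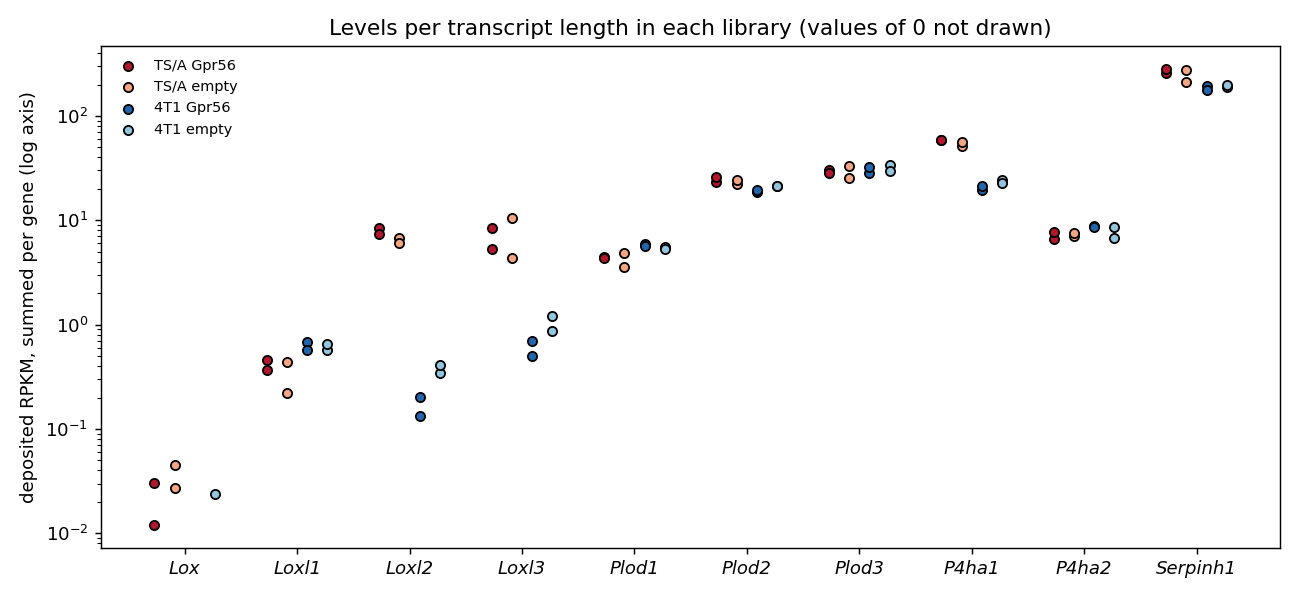
Deposited RPKM summed per gene in each library, on a log axis, with 2 points per line and vector label (values of 0 are not drawn). Serpinh1 is the highest gene in every library, and Loxl2 and Loxl3 are the genes whose TS/A points stand farthest above their 4T1 points.

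Of the 4 lysyl oxidases of the set, Loxl2 and Loxl3 were called between the lines. Loxl2, a lysyl oxidase that crosslinks collagen IV and fibrillar collagens, and Loxl3, a close relative, were higher in TS/A than in 4T1, whereas Lox was hardly transcribed in either. All fold changes below are from gene counts scaled by TMM (edgeR's normalization), with edgeR's quasi-likelihood test and p-values adjusted over all genes tested, and a gene was called at an adjusted p under 0.05. Of the 9 genes of the set that passed the filter on low counts, 3 were called higher in TS/A empty than in 4T1 empty and 0 lower, against 23.9% of all 11970 genes tested called higher and 23.5% called lower. The median of the 9 was 0.10 on the log2 scale, against 0.01 over all genes tested. In the other libraries of the lines, TS/A labelled Gpr56 against 4T1 Gpr56, 5 of 9 were called higher and 0 lower, with 26.5% of all genes called higher and 27.4% lower. In that comparison the median was 0.39 for the set and -0.00 over all genes. The fibroblast marker sum differed between the lines as well, with 158.4 to 377.9 CPM in TS/A and 10.5 to 19.3 CPM in 4T1. Most of the TS/A sum was Col1a1 alone, at 131.2 to 328.3 CPM. Of 13 listed, 6 were tested, and 3 were higher in TS/A empty than in 4T1 empty, namely Col1a1 (log2 7.01), Pdgfrb (6.06) and Fbln1 (3.04), and 0 lower. Among the Gpr56 libraries 4 were higher in TS/A and 1 lower, Tagln (log2 -2.56, adjusted p = 0.00357). The part of the fibroblast markers in the differences of Loxl2, Loxl3 and P4ha1 was not tested.

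Lox, the founding member of the family, had 3 and 1 reads in TS/A labelled Gpr56, 4 and 2 reads in TS/A empty, 0 and 0 in 4T1 Gpr56, and 2 and 0 in 4T1 empty. It did not pass the filter and was not tested. A count of 0 over both 4T1 Gpr56 libraries allows up to 0.0946 CPM, so no difference was detectable at this depth. These limits cover counting error only.

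Loxl2 had 34.8 and 31.5 CPM in TS/A empty, against 1.97 and 2.35 CPM in 4T1 empty. Its levels were 41.3 and 35.4 CPM in TS/A labelled Gpr56, against 0.749 and 1.125 CPM in 4T1 Gpr56. All TS/A libraries stood far above all 4T1 libraries, and no 4T1 library held more than 50 reads of it. With the empty vector it was 15.3-fold higher in TS/A (log2 3.93, SE 0.20, 95% interval 3.48 to 4.39, adjusted p = 2.93e-06), and among the Gpr56 libraries 42.9-fold higher (log2 5.42, SE 0.23, adjusted p = 1.08e-06). In TS/A a share of its reads fell on a second transcript, whose first exon lies at 69609478 to 69609566 on chromosome 14, inside the gene at 69609068 to 69695834 on the plus strand. That share was 17.8% (95% Wilson interval 15.6 to 20.2) and 23.6% (20.7 to 26.7) in TS/A labelled Gpr56, and 4.59% (3.38 to 6.22) and 15.9% (13.2 to 19.1) in TS/A empty. In 4T1 it was 0 of 113 reads over 4 libraries, which allows a share of up to 2.65%. The TS/A libraries differed among themselves by more than counting error, and no test was made of these shares.

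Loxl3 had 43.6 and 19.9 CPM in TS/A empty, against 3.82 and 5.26 CPM in 4T1 empty. The TS/A empty pair differed from each other by more than any 4T1 pair, yet both stood above both 4T1 libraries. The difference was 6.97-fold (log2 2.80, SE 0.41, 95% interval 1.86 to 3.74, adjusted p = 0.00093), and without TS/A empty 1 it was 2.12 on the log2 scale (adjusted p = 2.31e-05). Among the Gpr56 libraries Loxl3 had 35.9 and 23.0 CPM in TS/A, against 2.996 and 2.16 CPM in 4T1, and was 11.1-fold higher (log2 3.47, SE 0.44, adjusted p = 0.000384). The 3′ end of Loxl3 overlaps Htra2 on the opposite strand, a gene with between 957 and 3209 reads per library, and the library kit does not mark strand, so part of its reads could belong to either gene. Loxl1, which acts on elastic fibres, was low in both lines, with 1.44 and 0.808 CPM in TS/A empty, against 2.02 and 2.30 CPM in 4T1 empty (log2 -0.93, SE 0.37, adjusted p = 0.0692).

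**Figure D2:**
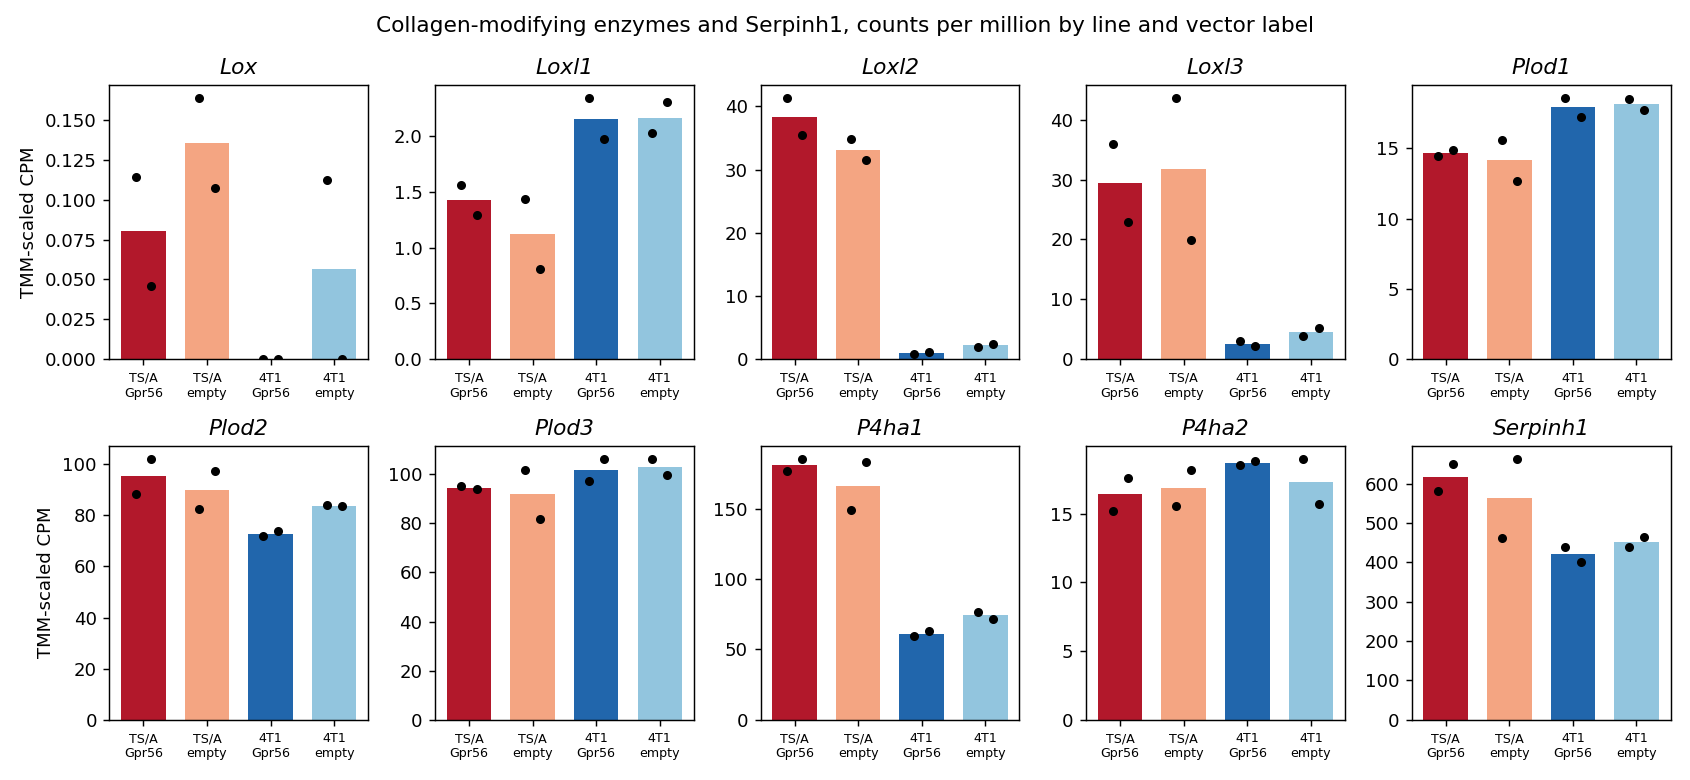
TMM-scaled CPM of the 10 genes in each library, with 1 panel per gene and its own linear axis from 0. Bars are means of 2 libraries and points are the libraries; Loxl2, Loxl3 and P4ha1 are the panels in which all TS/A points lie well above all 4T1 points.

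The lysyl hydroxylases were nearly level between the lines. Plod2 had 82.3 and 97.4 CPM in TS/A empty, against 83.9 and 83.5 CPM in 4T1 empty, and these groups overlapped (log2 0.10, SE 0.13, 95% interval -0.19 to 0.40, adjusted p = 0.539). Among the Gpr56 libraries it had 88.4 and 102.1 CPM in TS/A, against 71.7 and 73.9 CPM in 4T1, and was 1.31-fold higher (log2 0.39, SE 0.13, adjusted p = 0.0338). Plod3, the enzyme that also adds glucose to hydroxylysine already carrying galactose, had 101.9 and 81.6 CPM in TS/A empty, against 106.3 and 99.7 CPM in 4T1 empty. It overlapped between the lines (log2 -0.17, 95% interval -0.47 to 0.14, adjusted p = 0.332). The 5′ end of Plod3 overlaps Znhit1 on the opposite strand, which had between 347 and 846 reads per library. Plod1, which hydroxylates lysines of the helix, had 15.6 and 12.7 CPM in TS/A empty, against 18.5 and 17.8 CPM in 4T1 empty. Its groups did not overlap, but the difference missed the threshold (log2 -0.36, SE 0.15, adjusted p = 0.0873).

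Most Plod2 reads belonged to the long form in all 8 libraries. The transcript with the 63-base exon printed above took 79.7% (95% Wilson interval 78 to 81.2) and 82.7% (81.1 to 84.2) of Plod2 reads in TS/A labelled Gpr56, and 84.7% (83.1 to 86.2) and 74% (71.9 to 76) in TS/A empty. In 4T1 it took 67.8% (65.4 to 70.1) and 61.9% (58.5 to 65.3) with Gpr56, and 61.5% (59 to 63.9) and 78.9% (77 to 80.7) with the empty vector. The lines overlapped, since 4T1 empty 2 stood above TS/A empty 2, and replicates of 1 group differed by more than counting error. How the authors divided reads between transcripts of a gene is not given in the sources used here, and the transcripts differ at their ends as well, so these shares describe assigned reads and were not tested.

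Of the prolyl 4-hydroxylase subunits, P4ha1 differed between the lines and P4ha2 was not shown to. P4ha1 had 149.4 and 183.1 CPM in TS/A empty, against 76.6 and 71.7 CPM in 4T1 empty. It was 2.24-fold higher (log2 1.16, SE 0.13, 95% interval 0.87 to 1.46, adjusted p = 0.000215). Among the Gpr56 libraries it had 177.1 and 185.6 CPM in TS/A, against 59.6 and 63 CPM in 4T1, and was 2.96-fold higher (log2 1.57, SE 0.13, adjusted p = 4.09e-05), with no overlap in either case. P4ha2 had 15.6 and 18.2 CPM in TS/A empty, against 19.0 and 15.7 CPM in 4T1 empty. These groups overlapped (log2 -0.04, SE 0.16, 95% interval -0.41 to 0.34, adjusted p = 0.857). In this comparison the interval allows P4ha2 a change of at most 0.41 on the log2 scale, below the lower bound of 0.87 for P4ha1. Counting the most abundant transcript of each gene gave P4ha2 0.66 instead (adjusted p = 0.368). Among the Gpr56 libraries P4ha2 had 15.2 and 17.6 CPM in TS/A, against 18.6 and 18.8 CPM in 4T1 (log2 -0.19, 95% interval -0.57 to 0.19, adjusted p = 0.353).

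The share of P4ha2 reads assigned to each of its paired exons varied within groups as well as between the lines. Exon A took 49.9% (95% Wilson interval 45 to 54.8) and 34.8% (30.1 to 39.8) of the reads of transcripts with exon A or B in TS/A labelled Gpr56, and 43.3% (38.4 to 48.3) and 24.3% (20.1 to 29.2) in TS/A empty. In 4T1 it took 50.7% (45.6 to 55.8) and 86.7% (81.3 to 90.8) with Gpr56, and 50.5% (45 to 56) and 64.5% (59.2 to 69.5) with the empty vector. All 4 TS/A values lay below all 4 4T1 values, but the intervals of the nearest libraries overlapped. Replicates of each group differed by more than the gap between those nearest libraries (49.9% and 50.5%). The compared reads numbered only 196 to 397 per library. The share of exon A in P4ha1 was steadier, with 15.6% and 17.4% in TS/A labelled Gpr56, 17.8% and 15.6% in TS/A empty, 17.6% and 10.4% in 4T1 Gpr56, and 20.4% and 18.7% in 4T1 empty. Exon B was thus the main form of P4ha1 in every library. No test was made of either pair.

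**Figure D3:**
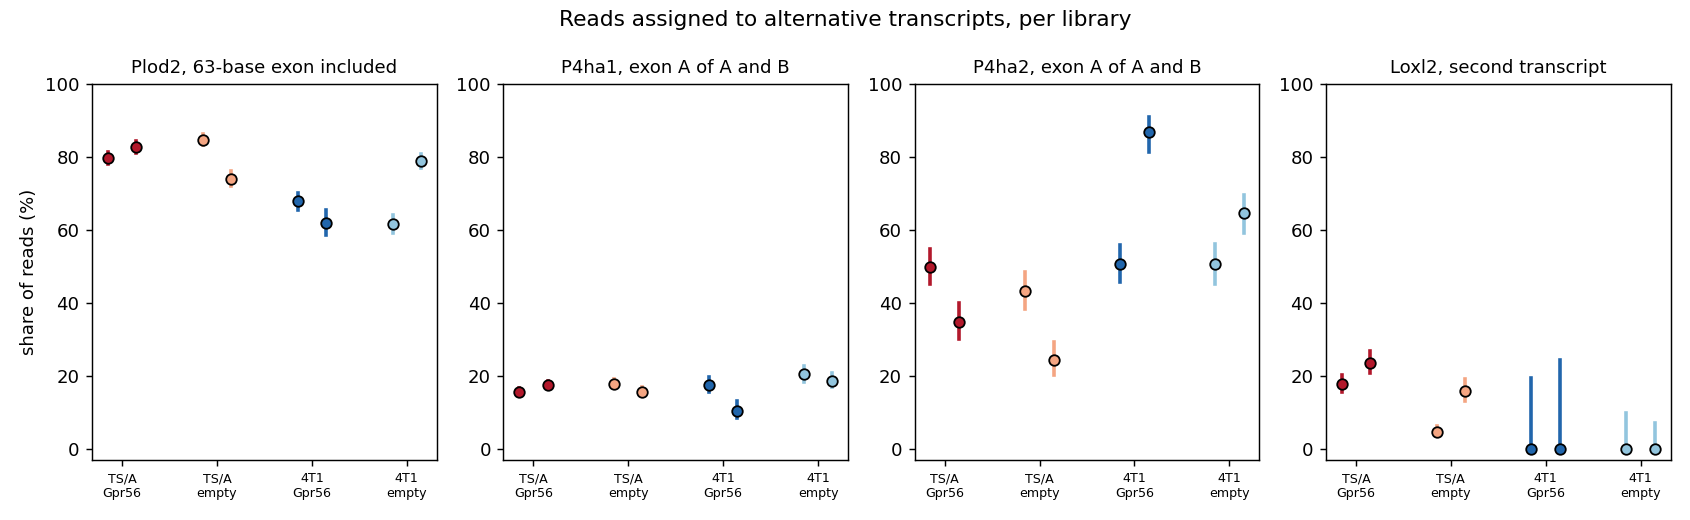
Share of reads (%) assigned to alternative transcripts in each library, with 95% Wilson intervals as bars, for the 63-base exon of Plod2, exon A of P4ha1 and P4ha2 among reads of exons A and B, and the second transcript of Loxl2. The P4ha2 shares run from 24.3% to 49.9% in TS/A and from 50.5% to 86.7% in 4T1, and the Loxl2 second transcript has 0 reads in 4T1.

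Serpinh1 had 462.0 and 663.4 CPM in TS/A empty, against 440.2 and 465.3 CPM in 4T1 empty. TS/A empty 1 lay within the 4T1 range, and the difference was not called (log2 0.31, SE 0.17, 95% interval -0.09 to 0.71, adjusted p = 0.169). Among the Gpr56 libraries it had 581.5 and 650.4 CPM in TS/A, against 439.1 and 401.6 CPM in 4T1, and was 1.47-fold higher (log2 0.55, SE 0.17, adjusted p = 0.0274). Several calls between the empty groups changed when TS/A empty 1 was left out, which left 1 library in that group. The change in estimated spread could not be told apart from the values of that library. Without it, 7 of 9 genes were called, in a fit that called 7853 of 12245 genes, against 5674 of 11970 with it. Serpinh1 was then higher (log2 0.55, adjusted p = 0.000276), and Loxl1 (log2 -1.42, adjusted p = 0.0245), Plod1 (log2 -0.52, adjusted p = 0.0117) and Plod3 (log2 -0.33, adjusted p = 0.00817) were lower in TS/A. TS/A empty 1 also had the highest fibroblast marker sum, 377.9 CPM against 158.4 CPM in TS/A empty 2, and 236.7 and 171.8 CPM in TS/A labelled Gpr56, most of it Col1a1. The part of that sum in these calls was not tested. Loxl2, Loxl3 and P4ha1 were called in the same direction between the empty groups under each of 17 alternatives.

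With Gpr56 in 4T1, 3 genes of the set fell and 0 rose. They were Loxl2, Plod2 and P4ha1, one from each enzyme family. In the 4 4T1 libraries alone, 11.3% of the 11361 genes tested were called lower and 11.5% higher, and the median was -0.11 for the 9 genes and -0.00 over all genes. Loxl2 had 0.749 and 1.125 CPM (16 and 12 reads) with Gpr56, against 1.97 and 2.35 CPM (35 and 50 reads) with the empty vector, and fell 2.42-fold (log2 -1.27, SE 0.40, adjusted p = 0.0325). P4ha1 had 59.6 and 63 CPM with Gpr56, against 76.6 and 71.7 CPM with the empty vector, and fell 1.21-fold (log2 -0.28, SE 0.07, adjusted p = 0.00761). Plod2 had 71.7 and 73.9 CPM with Gpr56, against 83.9 and 83.5 CPM with the empty vector, and fell 1.15-fold (log2 -0.20, SE 0.06, adjusted p = 0.0272).

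Loxl3 had 2.996 and 2.16 CPM with Gpr56, against 3.82 and 5.26 CPM with the empty vector, and missed the threshold (log2 -0.78, SE 0.27, 95% interval -1.36 to -0.20, adjusted p = 0.0508). Serpinh1 had 439.1 and 401.6 CPM with Gpr56, against 440.2 and 465.3 CPM with the empty vector (log2 -0.11, SE 0.06, adjusted p = 0.208). The groups did not overlap for 5 of 9 genes, Loxl2, Loxl3, Plod2, P4ha1 and Serpinh1, all lower with Gpr56, where 60% of all genes did not overlap in either direction. Loxl1 (log2 0.01, 95% interval -0.67 to 0.69), Plod1 (-0.01, -0.26 to 0.24), Plod3 (-0.02, -0.16 to 0.11) and P4ha2 (0.11, -0.16 to 0.38) were not called and their groups overlapped.

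The biological coefficient of variation was 5.47% in the 4 4T1 libraries and 14.7% with all 8. When all 8 libraries were fitted together, 0 of 9 genes were called, with adjusted p of 0.124 for Loxl2, 0.639 for Plod2 and 0.482 for P4ha1, and 0.226% of all genes were called in that fit (27 genes, with 1367 at an unadjusted p under 0.05). Leaving out 4T1 empty 1 ended all 3 calls (adjusted p = 0.112 for Loxl2, 0.171 for Plod2 and 0.112 for P4ha1), leaving out 4T1 empty 2 ended those of Loxl2 (0.285) and Plod2 (0.165), and leaving out 4T1 Gpr56 1 ended the same pair (0.189 and 0.0834). Loxl3 became called without 4T1 empty 1 (log2 -0.99, adjusted p = 0.0482) and without 4T1 Gpr56 1 (log2 -1.08, 0.0396), and Serpinh1 without 4T1 Gpr56 1 (log2 -0.17, 0.0277). The DESeq2 Wald test called P4ha1 (adjusted p = 0.0416) but not Loxl2 (0.147) or Plod2 (0.134). Scaling by library totals ended the call of Plod2 (0.0626), and counting the most abundant transcript of each gene ended all 3 (0.208 for Loxl2, 0.272 for Plod2 and 0.499 for P4ha1). With no filter on low counts Loxl3 was called (0.0146).

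In TS/A, 0 of 9 genes differed between the libraries labelled Gpr56 and the empty ones, and 0% of the 11276 genes tested were called by edgeR (115 at an unadjusted p under 0.05, and 3 called by DESeq2). With all 8 libraries in 1 fit, 0.00835% of genes were called (1 gene) and 0 of the set. P4ha1 had 177.1 and 185.6 CPM in the libraries labelled Gpr56, against 149.4 and 183.1 CPM in the empty ones (log2 0.12, SE 0.19, 95% interval -0.35 to 0.59). Loxl2 was the 1 gene of 9 whose groups did not overlap, with 41.3 and 35.4 CPM against 34.8 and 31.5 CPM in empty (log2 0.21, SE 0.18, 95% interval -0.23 to 0.65), where 21.6% of all genes did not overlap. The intervals of the other genes were wide, the narrowest running from -0.40 to 0.48 for Plod3 and the widest from -0.73 to 1.40 for Loxl1.

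**Figure D4:**
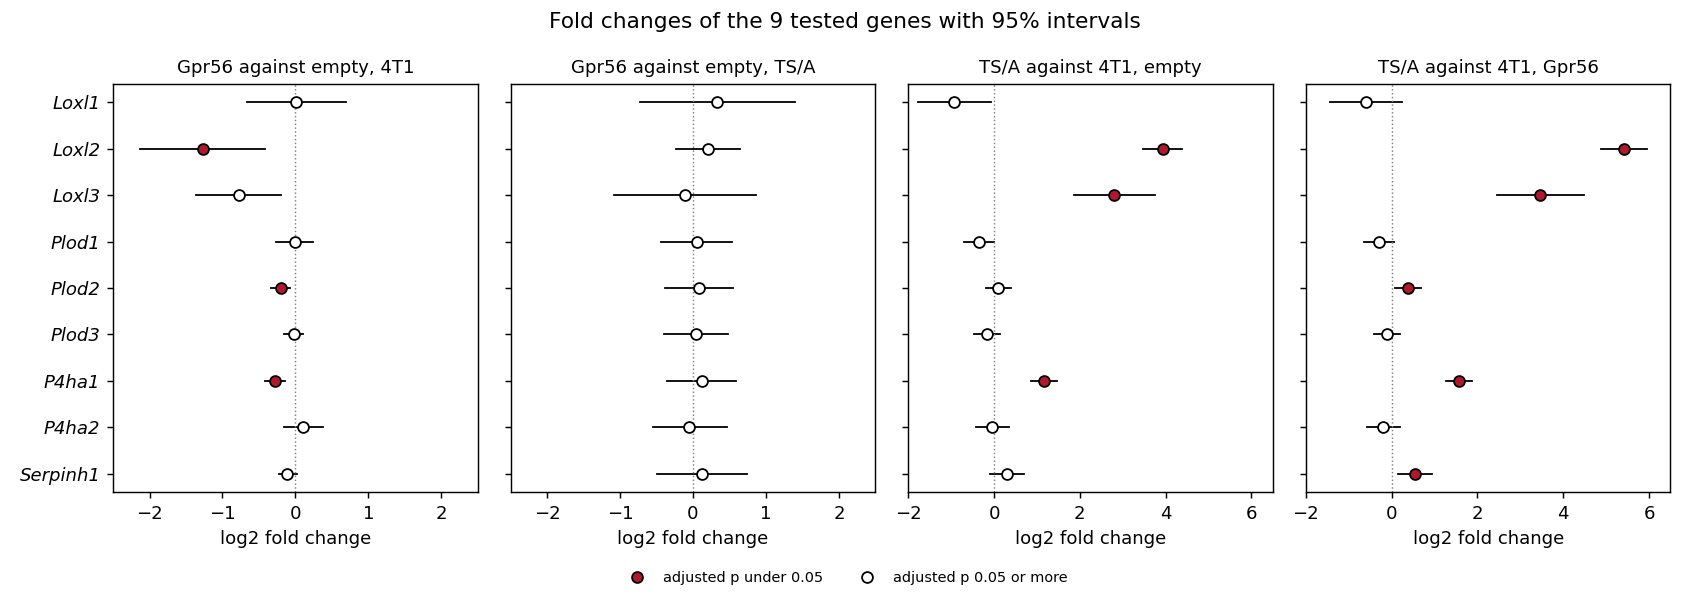
Log2 fold changes of the 9 tested genes with 95% intervals, in 4 panels: Gpr56 against empty in 4T1 and in TS/A, and TS/A against 4T1 for the empty and for the Gpr56 libraries (first pair and second pair of panels have different axes). Filled points have an adjusted p under 0.05; they are Loxl2, Plod2 and P4ha1 in the first panel, none in the second, Loxl2, Loxl3 and P4ha1 in the third, and these with Plod2 and Serpinh1 in the fourth.

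Whether the vector effect differed between the lines was tested in the fit of all 8 libraries. 0 of 9 genes were called, with 0.0668% of all genes called (8 genes). For 8 of the 9 genes the fold change was higher in TS/A than in 4T1, and the median difference was 0.29, against -0.01 over all genes. The 95% interval included 0 for every gene of the set but Loxl2, and the signs all come from the same libraries. Loxl2 differed most (log2 1.49, SE 0.32, 95% interval 0.77 to 2.22, unadjusted p = 0.00141, adjusted p = 0.344), and P4ha1 had a difference of 0.40 (SE 0.18, adjusted p = 0.777). Without TS/A empty 2, 4 genes were called, namely Loxl2 (1.44, adjusted p = 0.0106), P4ha1 (0.56, 0.00684), Serpinh1 (0.53, 0.0138) and Plod2 (0.42, 0.0457), and without TS/A empty 1, Loxl2 alone was called (1.58, 0.0332). Over all genes, 2391 of 12284 tested were called without TS/A empty 2 and 311 of 12245 without TS/A empty 1.

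Partners of these enzymes in collagen processing changed in both directions. Of 25 listed partners, 19 were tested, and in 4T1 4 fell with Gpr56 and 1 rose, where 22.8% of all genes tested were called in either direction. Pcolce, the enhancer of procollagen C-proteinase, had 11.4 and 12.5 CPM with Gpr56, against 24.0 and 24.9 CPM with the empty vector (log2 -1.04, SE 0.12, adjusted p = 2.25e-05). P3h1, a prolyl 3-hydroxylase, fell by 0.64 (adjusted p = 0.00136), Sec24d, a coat protein of collagen export, fell by 0.36 (0.0017), and Bmp1, the procollagen C-proteinase itself, rose by 0.16 (0.0483), all on the log2 scale. Between the empty lines 5 partners were higher in TS/A and 7 lower, where 47.4% of all genes tested were called. Pcolce (339.8 and 228.3 CPM in TS/A, against 24.0 and 24.9 CPM in 4T1) and Fkbp14, a prolyl isomerase (11.4 and 11.6 CPM against 2.08 and 2.02 CPM in 4T1), were higher, as was Adamts14, a procollagen N-proteinase (log2 1.29, adjusted p = 0.00153). Loxl4, the remaining lysyl oxidase, ran the other way from Loxl2 and Loxl3, with 49.7 and 41.0 CPM in TS/A empty, against 169.0 and 158.0 CPM in 4T1 empty (log2 -1.85, SE 0.13, adjusted p = 1.59e-05). P3h2, a prolyl 3-hydroxylase of basement membrane collagen, and Colgalt1, the hydroxylysine galactosyltransferase, were lower too, by log2 -3.63 and -0.80.

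Of 18 listed collagens and other lysyl oxidase substrates, 13 were tested. In 4T1, where 22.8% of all genes were called, 1 rose with Gpr56, Col7a1 of anchoring fibrils (log2 0.19, adjusted p = 0.0299), and 4 fell, among them Col6a1 (4.59 and 3 CPM against 13.8 and 11.8 CPM in empty; log2 -1.69), Col12a1 (log2 -0.83) and Col5a1 (log2 -0.29). Between the empty lines 4 were higher in TS/A and 4 lower, with 47.4% of all genes called. Col1a1, a chain of type I collagen, had 311.3 and 138.5 CPM in TS/A, against 1.74 and 1.74 CPM in 4T1 (log2 7.01, SE 0.48). The other chain of type I collagen, Col1a2, had only 1 to 6 reads per library in TS/A and 1 to 7 in 4T1. Col3a1 had 0 or 1 reads in every library. Fbn1 (fibrillin 1, log2 2.78) and Col6a1 (log2 1.80) were also higher in TS/A. The basement membrane chains Col4a1 (206.2 and 112.6 CPM in TS/A, against 621.2 and 577.9 CPM in 4T1) and Col4a2 (log2 -2.34) were lower, as was Col12a1 (log2 -3.21).

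Hypoxia genes were counted because P4HA1 and PLOD2 are known hypoxia targets. Of 19 listed, 18 were found and tested. In 4T1, with 22.8% of all genes called, 3 rose with Gpr56, Slc2a1 (log2 0.40), Hk2 (0.28) and Pfkfb3 (0.26), which serve glucose uptake and glycolysis, and 5 fell, among them Vegfa, the angiogenic factor (16.8 and 14.5 CPM against 23.7 and 27.4 CPM in empty; log2 -0.70), Car9 (-1.95) and Egln3 (-0.42). Between the empty lines 9 were higher in TS/A and 5 lower, again with 47.4% of all genes called. Vegfa (108.0 and 101.6 CPM in TS/A, against 23.7 and 27.4 CPM in 4T1), Egln3 (log2 0.96) and the oxidase Ero1l (log2 0.83) were higher, and Pfkfb3 (log2 -3.69), Ndrg1 (-0.85) and Egln1 (-0.70) were lower. The 4T1 empty libraries serve in both comparisons, so the directions of a gene in them are not independent.

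Of 13 heat shock genes 12 were tested. In 4T1, against 22.8% of all genes called, 4 rose with Gpr56, led by Hspb1 (log2 2.31), Cryab (0.74) and Hspa1b (0.34), and 2 fell, Hsp90ab1 (-0.32) and Hspe1 (-0.16), while Serpinh1 was not called. Between the empty lines, against 47.4% of all genes called, 3 were higher in TS/A, Hspb1 (1.30), Dnajb1 (0.66) and Cryab (0.76), and 3 lower, Hspa1b (-3.36), Hsph1 (-0.60) and Hspa8 (-0.61). Among the Gpr56 libraries Hspb1 was lower in TS/A (log2 -1.07, adjusted p = 0.00182). In TS/A, 0 genes of these 4 lists were called between the vector labels, and with all 8 libraries in 1 fit Hspb1 was the 1 gene of the 4 lists called for the vector in 4T1. Marker sums moved with the vector in 4T1 as well. All 8 epithelial markers rose, with sums of 3310.8 and 3245.7 CPM with Gpr56, against 2259.5 and 2228.1 CPM with the empty vector. The fibroblast sum was 10.5 and 12.2 CPM, against 19.3 and 18.9 CPM. The immune sum was 25.15 and 28.3 CPM, against 15.1 and 13.5 CPM, and Cd68 (log2 1.19) and Cd14 (0.51) were called higher. The part of these shifts in the changes of the enzymes was not tested.

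The gene whose profile over the 8 libraries lay nearest to each enzyme was found among 8569 genes with a mean of at least 10 CPM (8570 for Loxl1), by the root mean square difference of centred log2 CPM. P4ha1 lay nearest to Kdelc1, at 0.08, against its own spread of 0.69 about its mean. Kdelc1 had 100.6 and 116.1 CPM in TS/A labelled Gpr56, 85.0 and 118.6 CPM in TS/A empty, 35.1 and 35.7 CPM in 4T1 Gpr56, and 42.2 and 40.6 CPM in 4T1 empty. Loxl2 lay nearest to Pla2g7 (0.29, own spread 2.32) and Loxl3 to Hoxa7 (0.29, own spread 1.60). Serpinh1 lay nearest to Rpl7 (0.05), Plod2 to Sod2 (0.04), Plod1 to Mcu (0.04), Plod3 to Akt2 (0.04), P4ha2 to Zfp747 (0.06) and Loxl1 to Gps2 (0.10). For genes that vary as little as the Plod genes, with own spreads of 0.11 to 0.18, many profiles lie this near.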

How the data were processed

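RNA was purified on RNeasy columns and made into TruSeq v2 libraries, an unstranded kit, per the labels' protocols. Each of the 8 deposited files holds, per the file headers, a whole-number read count and the RPKM of 65042 transcripts. The aligner, genome build and annotation were not given in the sources used here. Deposited counts were summed over transcripts by gene symbol (trailing number removed). This gave 22026 genes, 15815 with a read. Of the transcripts, 65023 were found in GENCODE M21 (GRCm38), whose coordinates are given, and 19 were not. The deposited RPKM, also summed, was used only to compare genes per length.

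Tests were edgeR 4.0.16 quasi-likelihood tests in R 4.3.3, with filterByExpr, TMM factors and Benjamini-Hochberg adjustment over all genes tested, at 0.05 without a fold limit. The vector effects used the 4 libraries of 1 line, and the line difference and the difference between vector effects used all 8, with 1 term for the 4 groups. The standard error of a log2 fold change was its size over the root of F. CPM of genes are TMM-scaled from the fit of all 8 libraries; marker sums are plain CPM. The script was tested on simulated data. Replicates differed by more than sampling noise (chi-square over its degrees of freedom 3.64 to 123), and none were merged. Shares of reads have 95% Wilson intervals, which cover counting error only.

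Named genes were the 10 members, Adgrg1, up to 3 genes each way with the smallest p per list and comparison, and the nearest profile of each member among genes with a standard symbol. The members and lists were chosen with earlier results of these data known. Alternatives were DESeq2 1.42.0 size factors and Wald test, library totals, limma-voom (limma 3.58.1), other filters on low counts, a replicate block, the most abundant transcript, other sets of libraries in the fit, and leaving out each library.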

Additional observations from a re-analysis of the deposited data

Results flagged for a closer look

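Hspb1, a small heat shock protein gene from the heat shock list, was called in the test of the difference between the vector effects, at -2.37 on the log2 scale (TS/A minus 4T1; SE 0.27, 95% interval -2.99 to -1.74, adjusted p = 0.0368 by edgeR). It had 8.80 and 7.43 CPM in TS/A labelled Gpr56, against 8.86 and 7.86 CPM in TS/A empty, and 15.4 and 18.8 CPM in 4T1 Gpr56, against 3.43 and 3.38 CPM in 4T1 empty. The difference lay between -2.51 and -2.22 under 16 alternatives, was called in 6 of them, and its adjusted p ran from 6.83e-08 to 0.308.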

How the results depend on the processing

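Of the fold changes of the 9 genes over 4 comparisons, 472 of the values under alternatives kept direction and side of the threshold, 16 became called, 16 lost the call and 30 changed sign; none of the sign changes concerned a called gene. For list genes 614 kept both, 77 lost the call and 3 changed sign. Causes were not tested, and leaving out 1 library also changed the spread estimate and the genes that passed the filter. In 4T1 the vector gave 2588 called genes and 3 of the set, against 1549 and 1 with the DESeq2 Wald test, 167 and 0 with the most abundant transcript, 27 and 0 with all 8 libraries, and 1403 to 2748 genes and 1 to 3 of the set when 1 library was left out; library totals gave 1624 higher and 1042 lower, against 1308 and 1280 with TMM. In TS/A, 0 genes became 3 with DESeq2, 4 with no filter, 26 with the replicate block, 1 with all 8 libraries and 4 to 1140 without 1 library (1140 without TS/A empty 2), and 0 of the set were called in any of these. Between the lines, 5674 genes became 3713 in the 4 empty-vector libraries alone and 3335 to 7853 without 1 library, and 3 genes of the set became 5 among the Gpr56 libraries and 3 to 7 without 1 library. For the difference between vector effects, 8 genes became 4 with library totals, 66 with DESeq2, 0 with limma-voom, 60 with no filter, 3 with the replicate block and 0 to 2391 without 1 library, with 0 to 4 of the set. Sign changed for Plod1 and Plod3 in 4T1 with library totals (0.02 and 0.01), Plod1 with limma-voom (0.00), and, with the most abundant transcript, Plod3 (0.02) and P4ha2 (-0.34) in 4T1, P4ha2 (0.66) and Cryab (-0.59) between the lines and P4ha2 (0.08) in the difference; among the Gpr56 libraries Hspb1 (-1.07) and Cryab (-0.15) reversed. Without 1 library each, log2 values that changed sign ran from -0.14 to 0.11 (Loxl1), -0.07 to 0.04 (Plod1), -0.08 to 0.04 (Plod3) and -0.02 to 0.25 (P4ha2) in 4T1; from -0.54 to 0.57 (Loxl3), -0.04 to 0.23 (Plod2), -0.02 to 0.30 (P4ha1), -0.11 to 0.44 (Serpinh1), -0.07 to 0.21 (Plod1), -0.09 to 0.21 (Plod3) and -0.16 to 0.10 (P4ha2) in TS/A; from -0.18 to 0.10 (P4ha2) and -0.03 to 0.22 (Plod2) between the lines; and from -0.01 to 0.82 (Loxl1), -0.07 to 0.23 (Plod1) and -0.08 to 0.24 (Plod3) in the difference. An arm left with 1 library was assumed to vary like the others. With the replicate block Loxl3 became called in 4T1 (log2 -0.77, adjusted p = 0.045), which made 4 genes of the set, and it changed no other call of the set in the 4 comparisons. Replicate numbers are not stated to pair the libraries, and the correlation of replicate deviations was -0.02 in 4T1 and 0.31 in TS/A. Over 8 libraries, all reads of P4ha1 divided by the length of its most abundant transcript gave a mean of 41.3 CPM per kilobase. The mean deposited RPKM of P4ha1 summed over its transcripts was 39.1. Depth limits Lox, which had 0 to 4 reads per library, Loxl1, which had 15 to 50, and Loxl2 in 4T1, which had 12 to 50.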
